A study of Mus musculus with 20 samples.

Results

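DNA replication and mitosis were followed through 40 genes measured in 10 mouse blood cell types. The genes were listed by symbol, and all probe sets that the platform annotation gives to them were taken. Of the 40, 16 act in the preparation and copying of DNA and 24 act in mitosis. All 16 replication genes and 23 of the 24 mitosis genes had a probe set of their own, out of 18193 genes with one on the array. Ccnb1 (cyclin B1) had none and is named only. The 39 measured genes were covered by 90 probe sets, and 28 of the genes had more than 1. Each gene is described by its brightest probe set, and all 39 passed the filter on low values, which asked for a log2 value above 5 in at least 2 arrays.

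The arrays came from nucleated erythrocytes, activated CD8+ and CD4+ T cells, granulocytes, monocytes, long-term hematopoietic stem cells (LT-HSC), NK cells, B cells, and naive CD8+ and CD4+ T cells, with 2 arrays each. All groups were sorted by flow cytometry from wild-type C57Bl/6 CD45.1 mice, labelled female and 12 to 14 weeks old, and each array held 4 pooled samples. The activated T cells carry the label of an LPS treatment. The naive T cells are the unstimulated comparison. The values are log2 intensities, so a difference of 1 is a 2-fold difference, and values under 5 were treated as near background. RNA was amplified through repeated in vitro transcription before labelling. The replicates are pools, so a p-value measures the spread between pools. In bulk RNA of this kind, fewer dividing cells and less RNA per dividing cell cannot be told apart.

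A cell that divides first loads the MCM helicase onto its replication origins with the loaders Cdc6 and Cdt1, a step called licensing, and then copies its DNA with the sliding clamp Pcna and nucleotides made by ribonucleotide reductase. E2F transcription factors drive many of these genes at the start of S phase. Mitosis genes, among them the B cyclins, the Aurora kinases and Plk1, come on later and are known for a promoter element called CHR, which the DREAM and MuvB complexes bind beside CCAAT boxes. Erythroid precursors are known for rapid divisions that accompany their maturation, whereas long-term stem cells and naive lymphocytes are mostly quiescent.

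The promoters of 5 genes are shown as examples from the courses described below: Mcm5 and Cdc6 were higher in activated T cells, Ccnb2 and Cenpa were lower there, and Cdk1, a mitosis gene, was higher. Each window runs from 250 bases before to 50 bases after the gene start in RefSeq, build GRCm38.p6, 5′ to 3′ on the strand of the gene. Capitals mark the words searched on both strands, which were TTTCCCGC, TTTGGCGC, TTTCGCGC and TTTGCCGC for E2F, TTTGAA and TTCGAA for CHR, and CCAAT.
Mcm5, chr8:75109259-75109558, plus strand: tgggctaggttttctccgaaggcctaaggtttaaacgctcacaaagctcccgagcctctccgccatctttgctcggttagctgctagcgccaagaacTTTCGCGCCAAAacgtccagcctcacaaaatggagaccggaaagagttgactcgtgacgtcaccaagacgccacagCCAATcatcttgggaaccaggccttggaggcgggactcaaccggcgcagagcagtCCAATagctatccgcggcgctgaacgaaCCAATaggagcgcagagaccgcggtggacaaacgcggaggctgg
Cdc6, chr11:98907901-98908200, plus strand: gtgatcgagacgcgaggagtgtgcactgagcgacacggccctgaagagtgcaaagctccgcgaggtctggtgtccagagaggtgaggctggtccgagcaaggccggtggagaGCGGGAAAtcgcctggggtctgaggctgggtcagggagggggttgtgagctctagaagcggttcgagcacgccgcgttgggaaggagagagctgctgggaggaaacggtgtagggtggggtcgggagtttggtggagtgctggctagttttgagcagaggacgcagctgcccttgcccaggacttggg
Cdk1, chr10:69352863-69353162, minus strand: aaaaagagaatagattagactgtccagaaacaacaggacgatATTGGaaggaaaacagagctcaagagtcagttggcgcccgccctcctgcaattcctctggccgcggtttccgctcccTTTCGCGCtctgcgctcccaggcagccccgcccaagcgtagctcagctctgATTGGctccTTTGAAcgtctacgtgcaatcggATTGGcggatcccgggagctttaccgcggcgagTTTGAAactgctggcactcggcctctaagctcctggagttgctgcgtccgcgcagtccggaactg
Ccnb2, chr9:70421505-70421804, minus strand: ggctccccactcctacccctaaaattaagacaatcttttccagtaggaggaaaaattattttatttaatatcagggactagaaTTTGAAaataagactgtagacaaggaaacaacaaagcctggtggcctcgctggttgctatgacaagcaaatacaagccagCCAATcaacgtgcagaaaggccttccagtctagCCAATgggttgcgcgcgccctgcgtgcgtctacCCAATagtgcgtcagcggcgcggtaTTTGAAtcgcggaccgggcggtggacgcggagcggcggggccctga
Cenpa, chr5:30666636-30666935, plus strand: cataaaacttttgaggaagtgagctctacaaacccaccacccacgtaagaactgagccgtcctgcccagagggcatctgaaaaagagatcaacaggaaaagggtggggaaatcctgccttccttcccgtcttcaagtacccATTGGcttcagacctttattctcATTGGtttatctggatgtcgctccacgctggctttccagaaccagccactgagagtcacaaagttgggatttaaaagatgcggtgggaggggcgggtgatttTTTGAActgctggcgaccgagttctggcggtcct

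Mcm5 held 2 E2F words that overlap and 3 CCAAT words, and Cdc6 held 1 E2F word on the opposite strand. Cdk1 held 1 E2F word, 2 CHR words and 3 CCAAT words. Ccnb2 and Cenpa held CHR and CCAAT words and no E2F word. A window was given for 33 of the 40 genes, 14 of replication and 19 of mitosis. An E2F word lay in 6 of the 14 replication windows (42.9%) and in 1 of the 19 mitosis windows (5.26%), that of Cdk1, beside 2.6% of all 27025 genes with a window. A CHR word lay in 3 of 14 replication windows (21.4%) and 15 of 19 mitosis windows (78.9%), beside 21.7% of all genes. A CCAAT word lay in 64.3% of the replication windows, 89.5% of the mitosis windows and 41.1% of all genes. CHR and CCAAT words stood in the same window for 21.4% of the replication genes, 78.9% of the mitosis genes and 8.61% of all genes. The 5 windows shown do not stand for all genes of their course. Of the other genes higher in activated T cells, Mcm3, Mcm6 and Mcm7 held an E2F word. Mcm2, Pcna, Rrm1, E2f1, Ccne1 and Bub1b were higher there too and held none. Cdt1 held an E2F word and was not called there with its brightest probe set. The matches describe letters, not binding.

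The label checks came out as follows. Klf1, an erythroid transcription factor, read 13.52 and 13.33 in nucleated erythrocytes and Cd3e was above 5 in the 8 T cell arrays and in no other. Mecom marked LT-HSC, Ncr1 marked NK cells, Cd8a read 12.42 to 13.44 in CD8 arrays, and Il2ra read 11.43 to 12.02 in activated T cells. Cd4 was under 5 in every array, so the CD4 label could not be checked, and the alpha globin probe set was at background in all arrays. Other markers ran across the labels. S100a8, a neutrophil gene, read 14.19 and 15.26 in nucleated erythrocytes and 10.75 in naive CD4 array 2. In nucleated erythrocytes all 6 measured neutrophil markers were above 5, and in the monocyte arrays 6 and 5 were. Granule-precursor markers, with Mpo at 12.77 and 11.97 in granulocytes and 10.02 and 11.15 in nucleated erythrocytes, were above 5 for 4 to 5 of 5 and for 2 to 3 of 5. Of 3 measured Y-linked genes, 2 were above 5 in the 4 activated arrays and in the naive arrays numbered 1, and in no other array, although the labels call all mice female. Replicate arrays correlated at 0.945 to 0.988 over all genes.

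**Figure D1:**
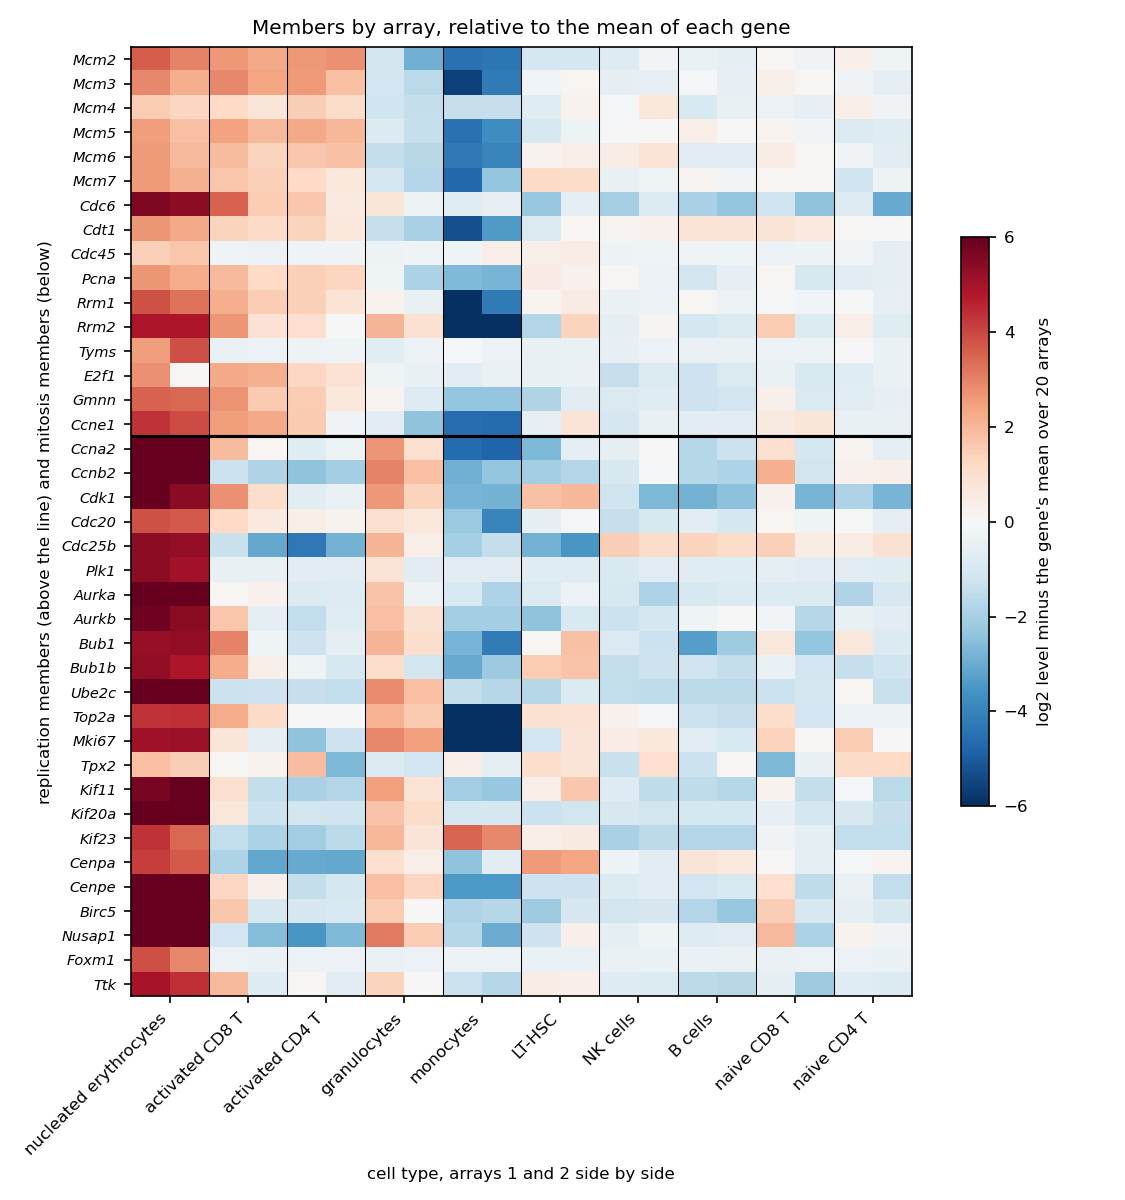
Log2 level of each of the 39 genes in each of the 20 arrays, after the mean of the gene over all arrays was taken away; columns are arrays 1 and 2 of each cell type, red is above and blue below the mean, with the colours ending at 6 on either side. The nucleated erythrocyte columns are red in both blocks, the activated T columns in the replication block, the granulocyte columns in the mitosis block, and the monocyte columns are mostly blue.

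Nucleated erythrocytes held the highest level of nearly all of these genes. They ranked top of the 10 types for 13 of 16 replication genes, with activated CD8 T cells top for the other 3, and for all 23 mitosis genes. In the contrast with the mean of the other 9 types, 38 of 39 genes were higher and none was lower (limma; a call means an adjusted p below 0.05 together with a 2-fold difference or more). No gene was lower at an unadjusted p under 0.05 either. Plk1, Foxm1 and Tyms were above 5 in the erythrocyte arrays only. Aurka was above 5 elsewhere only in granulocyte array 1 (5.81), and the filter asked for 2 arrays. Plk1, Foxm1, Tyms and Aurka thus passed the filter through the type in which they are high, and they had to differ. Over all 9810 genes tested, 18.5% were called higher and 36.7% lower, and the median difference was -0.54. The median difference was 5.90 over the 23 mitosis genes and 2.77 over the 16 replication genes.

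The mitosis genes covered the widest range. Ube2c, the ubiquitin-conjugating enzyme of the anaphase-promoting complex, read 13.91 and 13.63 in nucleated erythrocytes, against 3.98, 4.35 and 8.54 as the lowest, median and highest of the other 18 arrays. Ccnb2, cyclin B2, read 12.60 and 12.17 in nucleated erythrocytes, against 2.13, 3.51 and 7.99 over the rest. Aurka, the spindle pole kinase, read 10.71 and 10.41, against 2.26, 3.29 and 5.81 over the rest. In each case the erythrocyte arrays lay above every other array. The differences were 8.98 ± 0.32 (SE, adjusted p = 4.90e-11, limma) for Ube2c, 8.20 ± 0.55 for Ccnb2 and 7.16 ± 0.40 for Aurka. Plk1, the kinase that drives spindle assembly, was above 5 in no array outside nucleated erythrocytes, where it read 8.72 and 8.36, against at most 4.15 elsewhere. Foxm1, a transcription factor of mitosis genes, stood likewise at 8.28 and 7.28 in erythrocytes, against 3.99 to 4.04 in all other arrays. The typical level of these genes outside erythrocytes was near background, so the differences carry no measured ratio and no order. Further differences were those of Birc5 (survivin, a chromosomal passenger, 7.45), Nusap1 (a spindle microtubule protein, 7.30), Cenpe (a kinetochore motor, 7.29) and Kif20a (a cytokinesis kinesin, 7.09).

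Tpx2, which activates Aurka on the spindle, did not pass with its brightest probe set. That set overlapped between nucleated erythrocytes and the rest, whose highest array read 9.02 (difference 1.83 ± 0.86, adjusted p = 0.0740, limma). Of its other 3 probe sets, 2 differed by 6.53 ± 0.36 and 6.92 ± 0.23 and passed, and the third did not (1.48 ± 0.69). The probe sets of Tpx2 thus disagreed. The set with the difference of 6.92 was above 5 in the erythrocyte arrays only, so it had to differ.

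Differences of the replication genes were mostly smaller, and most of these genes were above 5 in the other types. Cdc6, the origin loader, had the largest difference of them, with 12.71 and 12.44 in nucleated erythrocytes, against 4.05, 6.34 and 10.64 over the rest (6.09 ± 0.62). Pcna read 14.11 and 13.70, against 8.66, 11.14 and 13.40 over the rest (2.73 ± 0.36). Mcm3, Mcm4 and Mcm5, subunits of the helicase, overlapped the rest, with Mcm5 at 15.30 and 14.59 in erythrocytes, against up to 15.20 in the other arrays. E2f1 had the smallest difference (1.56 ± 0.44, adjusted p = 0.00602, limma), read 8.55 and 5.89 in the 2 erythrocyte arrays, and lost its call when erythrocyte array 1 was left out. Its second probe set read 9.75 and 9.40 there and differed by 4.62 ± 0.23. In all, 33 of the 39 genes had both erythrocyte arrays above all 18 others, beside 11.8% of all genes tested. None had both below, beside 12.5%. Plk1, Foxm1, Tyms and Aurka, which passed the filter through erythrocytes, are among the 33.

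**Figure D2:**
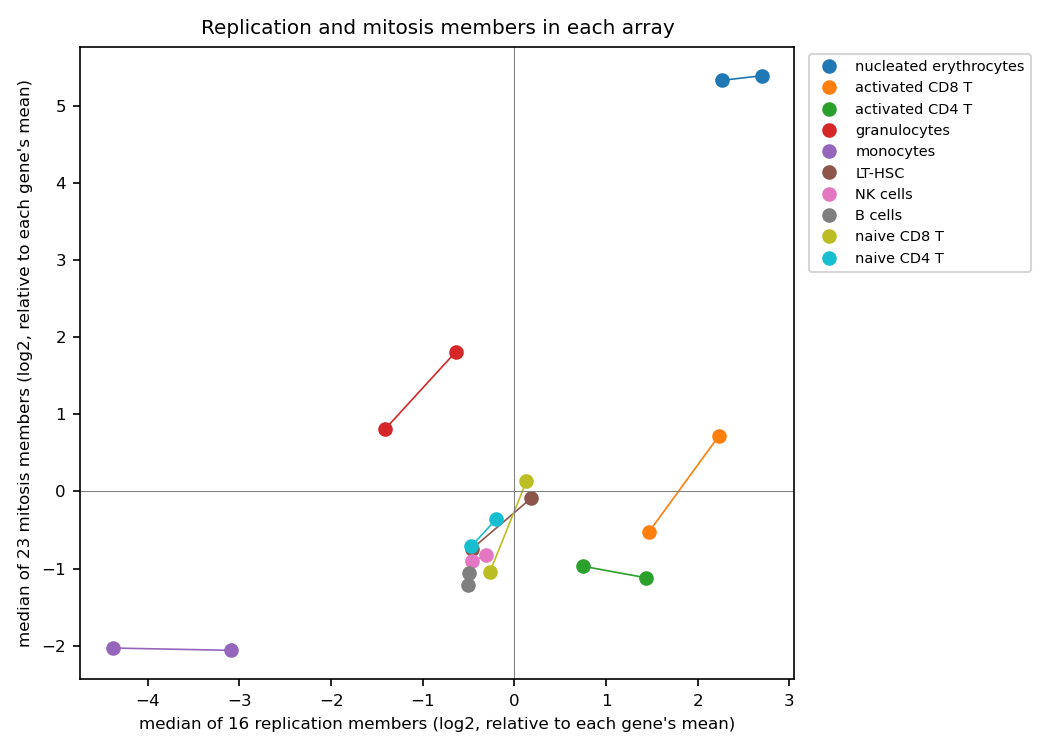
Median over the 16 replication genes (horizontal) and over the 23 mitosis genes (vertical) in each array, on the log2 scale relative to the mean of each gene over 20 arrays; lines join the 2 arrays of a type. Nucleated erythrocytes lie high on both axes, activated T cells lie right of 0 on replication with mitosis between -1.12 and 0.72, and granulocytes lie left of 0 with mitosis above 0.

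The medians of the blocks stood apart most in nucleated erythrocytes, where replication minus mitosis was -2.69 and -3.07. Activated T cells, granulocytes and monocytes followed. On the scale of the plot of medians per array, replication stood at 1.44 and 0.75 and mitosis at -1.12 and -0.97 in activated CD4 T cells. Granulocytes ran the other way, with replication at -0.64 and -1.41 and mitosis at 1.81 and 0.81. In B, NK and naive T cells and in LT-HSC the medians differed by 0.00 to 0.78. The second-highest type was activated CD8 T cells for 8 of 16 replication genes and granulocytes for 16 of 23 mitosis genes. Each gene was set beside the median of the other genes of each block by Spearman's rho over the 10 type means. The rho values are a description only, since all points share the same arrays. Levels of 14 replication genes followed the median of replication more closely than that of mitosis. The exceptions were Rrm2 (0.70 with replication and 0.83 with mitosis) and E2f1 (0.54 with each to the digits given). Among the 14, rho with replication ran from 0.10 (Cdc45) and 0.28 (Tyms) up to 0.96 (Ccne1). Cdc6 stood at 0.54 with replication and 0.50 with mitosis, so not all 14 followed their block closely. Of the mitosis genes, 21 of 23 followed mitosis more closely, and Tpx2 and Foxm1 did not. Among the 21, rho with mitosis ran from 0.31 (Cdc25b) to 0.95 (Bub1 and Kif11). Tyms, Plk1 and Foxm1 were above 5 in erythrocytes only, so their order over the other types was not measured.

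Licensing and replication genes were higher in activated than in naive T cells. In the mean of activated CD4 and CD8 cells against the mean of naive ones, 14 of 39 genes were higher and 5 lower, beside 17.1% higher and 19.5% lower among all genes tested and a median of all genes of 0.00. Replication gave 12 of the 14, with 12 of 16 higher, none lower and a median of 1.70. None of the 16 was lower at an unadjusted p under 0.05. Mitosis gave 2 higher and 5 lower of 23, with a median of 0.09. Among the genes by which the blocks are usually named, 8 of 8 replication genes (Mcm2 to Mcm7, Cdc6 and Pcna) were higher, and of the 4 mitosis genes with a probe set (Ccnb2, Aurka, Aurkb and Plk1) none was called higher and Ccnb2 was lower. None of the 4 was higher at an unadjusted p under 0.05. Plk1 (2.62 to 2.90) and Aurka (2.33 to 4.36) were under 5 in all 8 T cell arrays, so no change in them could be measured, and the 8 of 8 cannot be set against these 4. The 4 activated arrays lay above the 4 naive ones for 12 of the 39 genes, 11 of them replication genes, and below them for 3, all mitosis genes, beside 22.4% and 23.4% of all genes.

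Of the 10 licensing genes, 8 were higher. Cdc6 read 10.64 and 8.60 in activated CD8 and 8.69 and 7.66 in activated CD4 cells, against 5.89 and 4.69 in naive CD8 and 6.32 and 4.05 in naive CD4 cells. All 4 activated arrays were above all 4 naive ones, and the difference was 3.66 ± 0.59 (SE, adjusted p = 1.72e-04, limma). Mcm2 read 11.02 and 10.69 in activated CD8 and 11.03 and 11.14 in activated CD4 cells, against 8.18 to 8.73 in the 4 naive arrays (2.57 ± 0.32). Mcm5 read 15.20 and 14.75 in activated CD8 and 15.08 and 14.79 in activated CD4 cells, against 12.95 and 12.64 in naive CD8 and 11.92 and 12.05 in naive CD4 cells (2.56 ± 0.24). The other helicase subunits were higher by 1.28 (Mcm4) to 2.49 (Mcm3). Gmnn, geminin, which blocks repeated loading, was higher by 2.04 ± 0.35. Cdt1, the partner of Cdc6, had a difference of 0.77 ± 0.34 that did not pass (adjusted p = 0.0798, limma), while another of its probe sets passed at 1.83. Cdc45, which turns the loaded helicase on, stood at 0.09 with its brightest probe set and at 1.34 with another, which passed. That other set read 7.72 and 5.64 in activated CD8 and 4.43 and 4.21 in activated CD4 cells, against 4.14 to 4.17 in the naive arrays. Among T cells it was above 5 in the activated CD8 arrays only, so the 1.34 carries no measured ratio.

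At the fork, Pcna was higher by 1.97 ± 0.34 and Rrm1, the large subunit of ribonucleotide reductase, by 1.67 ± 0.49. Rrm2, the small subunit, read 13.15 and 11.39 in activated CD8 and 11.54 and 10.56 in activated CD4 cells, against 12.05 and 9.71 in naive CD8 and 10.90 and 9.79 in naive CD4 cells. Its groups overlapped and the difference of 1.05 ± 0.68 did not pass. Tyms, thymidylate synthase, was near background in all 8 arrays with its own probe set. The probe set it shares with Tyms-ps, which was not tested, read 9.56 and 7.73 in activated CD8 and 8.50 and 7.17 in activated CD4 cells, against 7.80 and 4.88 in naive CD8 and 5.55 and 4.92 in naive CD4 cells. Of the genes of S phase entry, E2f1 was higher by 2.23 ± 0.41 and Ccne1, cyclin E1, by 1.46 ± 0.42. Rrm1 and Ccne1 each lost the call in 2 of 31 alternative settings.

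Among the mitosis genes, 2 higher and 5 lower calls of 23 stand beside 17.1% and 19.5% over all genes, so the lower count is about the general share. Cdk1, the kinase of mitotic entry, read 8.76 and 7.06 in activated CD8 and 5.38 and 5.62 in activated CD4 cells, against 6.27 and 3.23 in naive CD8 and 4.15 and 3.22 in naive CD4 cells (2.49 ± 0.59, adjusted p = 0.00322, limma). Bub1b, a spindle checkpoint kinase, was higher by 1.39 ± 0.46, a call that was lost in 9 of 31 alternatives. Cdc25b, the phosphatase that activates Cdk1, read 6.81 and 5.08 in activated CD8 and 3.85 and 5.32 in activated CD4 cells, against 9.57 and 8.59 in naive CD8 and 8.60 and 9.08 in naive CD4 cells. All activated arrays were below all naive ones (-3.69 ± 0.45, adjusted p = 1.77e-05, limma). Cenpa, the centromere histone, read 6.15 and 4.86 in activated CD8 and 4.96 and 4.93 in activated CD4 cells, against 8.06 and 7.46 in naive CD8 and 7.88 and 8.15 in naive CD4 cells (-2.66 ± 0.35). Nusap1 (-2.47 ± 0.70), Ccnb2 (-2.30 ± 0.52) and Mki67, which coats mitotic chromosomes (-1.63 ± 0.51), were lower too. Mki67 lost its call in 6 alternatives and Nusap1 in 2. Cenpa lost it when all its probe sets were averaged, and another of its probe sets stood near background in all T cell arrays.

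Most mitosis genes passed in neither direction. Aurkb read 8.68 and 6.50 in activated CD8 and 5.55 and 6.29 in activated CD4 cells, against 6.88 and 5.29 in naive CD8 and 6.56 and 6.37 in naive CD4 cells (0.48 ± 0.48), and its groups overlapped. Ccna2, cyclin A2, read 10.04 and 8.23 in activated CD8 and 7.38 and 7.82 in activated CD4 cells, against 9.07 and 7.08 in naive CD8 and 8.31 and 7.52 in naive CD4 cells (0.37 ± 0.57). Cdc20, the activator of the anaphase-promoting complex, read 10.02 to 11.03 in the 4 activated arrays, against 9.23 to 9.96 in the 4 naive ones. Its groups did not overlap, the difference of 0.77 ± 0.32 did not pass (adjusted p = 0.0594, limma), and another of its probe sets passed at 1.38 ± 0.26. Ttk, a spindle checkpoint kinase, read 7.07 and 4.37 in activated CD8 and 5.21 and 4.49 in activated CD4 cells, against 4.60 and 2.97 in naive CD8 and 4.39 and 4.31 in naive CD4 cells (1.22 ± 0.51, not called). Aurka (0.76 ± 0.38), Plk1 (0.09 ± 0.25) and Ube2c (-0.46 ± 0.30) did not pass either.

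Levels near background limit this comparison. For 3 of the 23 mitosis genes and 1 of the 16 replication genes, no activated or naive T cell array was above 5. Ccnb2 read 3.72 and 3.18 in activated CD8 and 2.57 and 2.94 in activated CD4 cells, against 7.12 and 3.92 in naive CD8 and 5.27 and 5.32 in naive CD4 cells, so its activated level is only a value near background. Naive CD8 array 1 was above array 2 for 19 of the 23 mitosis genes, with a median gap of 1.33, and activated CD8 array 1 above array 2 for 20, with a median gap of 1.32. The probe set for the 5′ end of Gapdh read 7.42 to 8.81 in the activated arrays, against 3.89 to 4.45 in the naive ones. Markers of other cells moved too. Csf1r, a monocyte gene, read 2.22 to 4.63 in the activated arrays, against 7.91 to 10.21 in the naive ones. Over the 5 measured monocyte markers, 0 to 1 were above 5 in activated arrays (means 3.75 to 4.09), against 1 to 2 in naive ones (means 4.77 to 5.53). Ms4a1, a B cell gene, read 4.34 to 6.76 in activated arrays, against 7.16 to 8.58 in naive ones, with 1 to 2 of 4 B cell markers above 5 (means 3.85 to 4.49), against 2 of 4 (means 4.79 to 4.94). S100a8 read 3.38 to 3.91 in activated arrays, against 10.75 and 6.49 in the naive arrays numbered 2. The part of the Gapdh signal and of these markers in the result was not tested. The naive arrays numbered 1, like the activated arrays, carried the Y-linked signal. With those alone as the naive cells, 12 genes were higher and 5 lower, and with only the naive arrays numbered 2, 14 were higher and 3 lower.

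**Figure D3:**
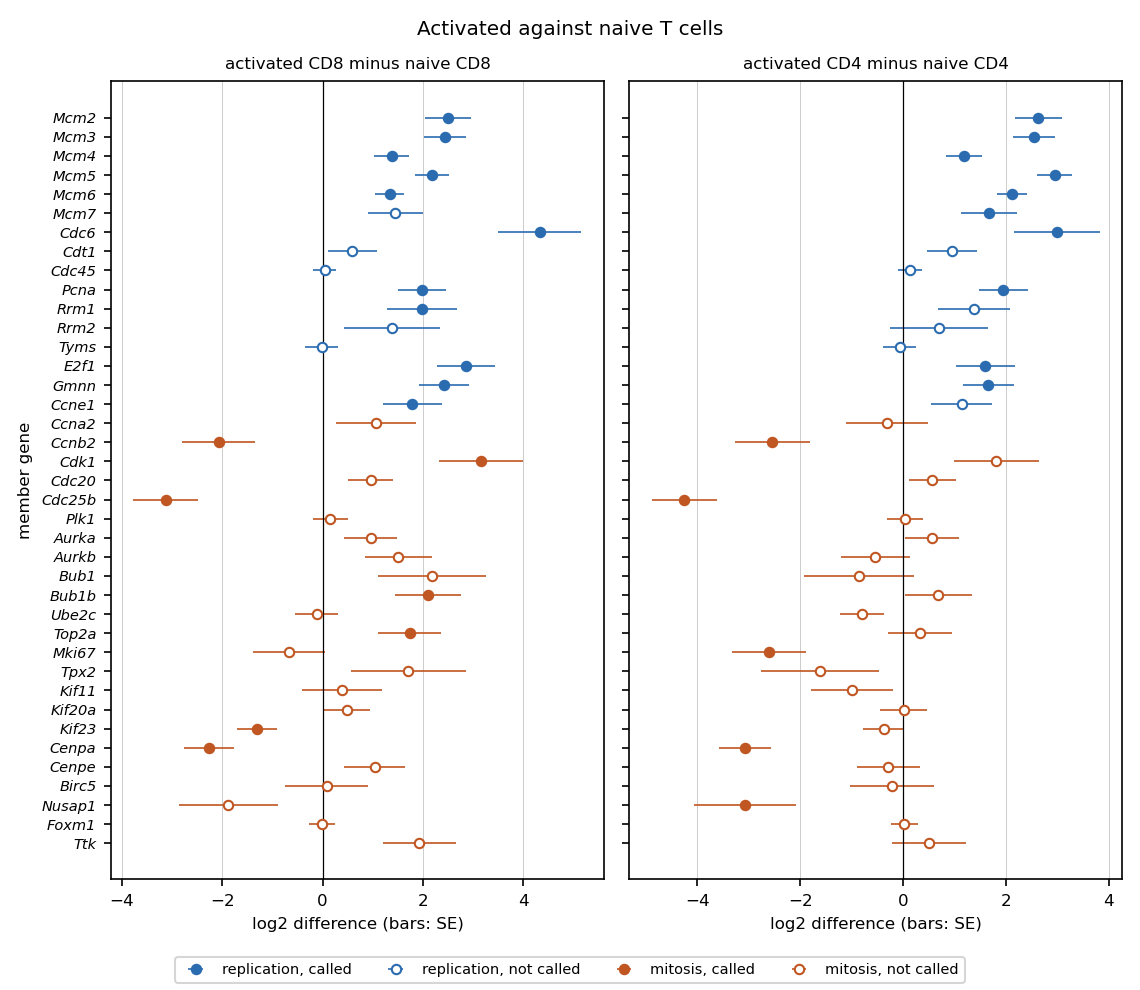
Log2 difference with its standard error for each gene, activated minus naive, in CD8 (left panel) and CD4 T cells (right panel); filled points passed the test and open points did not, blue for replication and orange for mitosis. The blue points lie mostly right of 0 in both panels, and Cdc25b, Cenpa and Ccnb2 lie left of 0.

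Within CD8 cells, 14 genes were higher and 4 lower, beside 14.4% and 15.7% of all genes. Within CD4 cells, 10 were higher and 5 lower, beside 14.9% and 18.2%. The 2 lineages shared 9 higher calls and 3 lower ones (Cdc25b, Cenpa and Ccnb2), although the CD8 call of Ccnb2 was lost in 18 of 31 alternatives. The CD4 call of E2f1 was lost in 22 of 31, that of Mcm7 in 6 and those of Gmnn and Nusap1 in 5 each. Those of Cdc6, Mcm4 and Mki67 in CD4 were lost in 4 each and that of Ccnb2 in 3. Mitosis genes had a median difference of 0.48 in CD8 and -0.31 in CD4 cells, with Cdk1, Bub1b and Top2a (the topoisomerase that untangles chromosomes) higher in CD8 and none called in CD4 as higher. Of these CD8 calls, that of Top2a was lost in 21 of 31 alternatives, that of Bub1b in 7 and that of Cdk1 in 4. The CD8 call of Rrm1 was lost in 24. At an unadjusted p under 0.05, 1 mitosis gene was higher in CD4 cells. With 2 arrays against 2, the groups did not overlap for 20 genes above and 4 below in CD8 (beside 32.8% and 38.4% of all genes) and 20 above and 9 below in CD4 (beside 39.3% and 35.1%). These counts rest on single arrays. In CD8, 7 genes were higher without activated CD8 array 1 and 8 without naive CD8 array 2, and the lower genes numbered 2 without naive CD8 array 1 and 1 without activated CD8 array 2. In CD4, 5 were higher and 3 lower without activated CD4 array 1, 6 were higher without naive CD4 array 2, and 2 were lower without naive CD4 array 1. The difference between the lineages was tested itself, and none of the 39 genes passed with limma, nor did any reach an unadjusted p under 0.05. Among all genes, 0.326% passed as more positive in CD8 and 0.336% as more negative. Bub1, a checkpoint kinase, had a difference of 3.03 ± 1.52 and Aurkb, the chromosomal passenger kinase, of 2.05 ± 0.95, so differences of that size were within the error of this design.

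Nucleated erythrocytes exceeded activated T cells in nearly all mitosis genes and in 8 of the 16 replication genes, none of them an Mcm subunit. In erythrocytes against activated T cells, 30 of 39 genes were higher and none was lower. Among all genes 21.4% were higher and 37.4% lower, with a median of -0.36. The 39 include Plk1, Foxm1, Tyms and Aurka, which passed the filter only through the erythrocyte arrays. No gene was lower at an unadjusted p under 0.05. Mitosis genes were higher in 22 of 23 cases with a median of 5.90. The median of the replication genes was 1.23. Both erythrocyte arrays lay above all 4 activated arrays for 34 genes and below them for none, beside 26.9% and 45.3% of all genes. None of Mcm2 to Mcm7 passed: Mcm5 differed by -0.01 ± 0.30, Mcm3 by 0.13 ± 0.36 and Mcm7 by 1.10 ± 0.48. Another probe set passed for Mcm3 (1.20 ± 0.44) and for Mcm7 (1.75 ± 0.52).

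The 8 replication genes that passed were Rrm1, Rrm2, Tyms, Cdc6, Cdt1, Cdc45, Gmnn and Ccne1. Rrm2 read 15.36 and 15.36 in erythrocytes, against 13.15 and 11.39 in activated CD8 and 11.54 and 10.56 in activated CD4 cells (3.70 ± 0.83, adjusted p = 0.00131, limma). Tyms was higher by 3.52 ± 0.29, Cdc6 by 3.68 ± 0.72 and Ccne1 by 2.56 ± 0.51. A probe set that Tyms shares with its pseudogene read 11.88 and 11.39 in erythrocytes, against 9.56 and 7.73 in activated CD8 and 8.50 and 7.17 in activated CD4 cells, so the Tyms level in T cells differs with the probe set. E2f1 did not pass (-0.22 ± 0.51). Its second probe set was higher by 2.90 ± 0.27. Its brightest set was called higher at 1.11 without erythrocyte array 2 and lower at -1.55 without erythrocyte array 1. Ube2c (9.43 ± 0.37), Ccnb2 (9.28 ± 0.63) and Nusap1 (9.04 ± 0.85) had fitted differences against values at or near background, since activated arrays read 4.23 to 4.43, 2.57 to 3.72 and 2.72 to 5.09 for them. These differences give no measured ratio and no order. The neutrophil and granule-precursor markers in the erythrocyte arrays moved with this result, and their part in it was not tested.

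**Figure D4:**
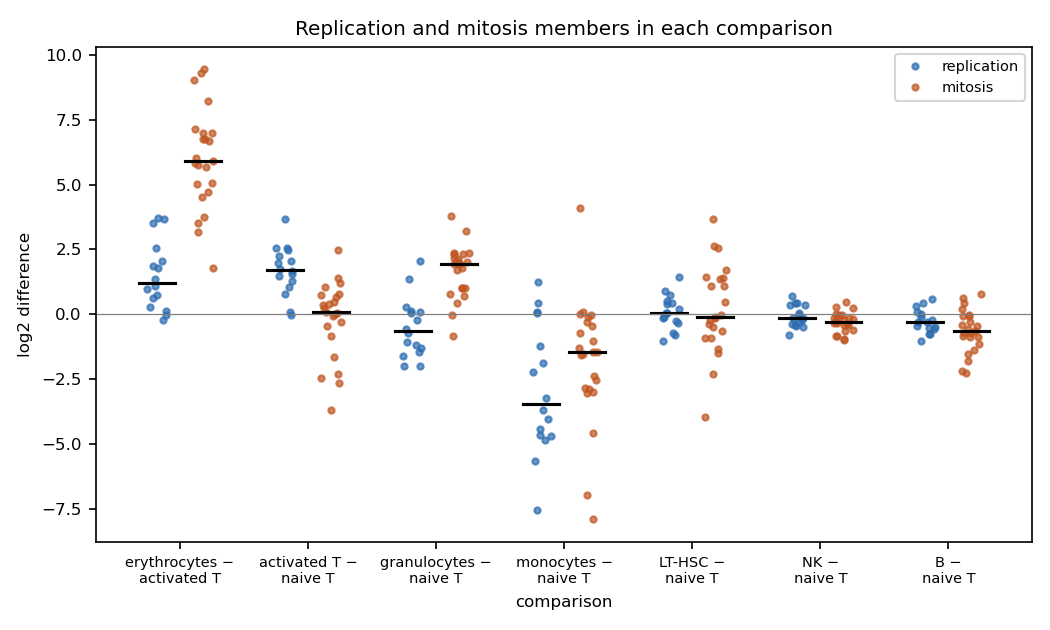
Log2 differences of the replication genes (blue) and mitosis genes (orange) in 7 comparisons, 1 point per gene, with a black bar at the median. The medians are 1.23 and 5.90 for erythrocytes minus activated T cells, 1.70 and 0.09 for activated minus naive T cells, and -0.65 and 1.95 for granulocytes minus naive T cells.

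Mitosis genes were higher in granulocytes than in naive T cells in 15 of 23 cases, a count that rests on single arrays as given below. In granulocytes against naive T cells, 16 genes were higher and 6 lower, beside 20.1% and 29.6% of all genes and a median of -0.20. Of the 16, 15 were mitosis genes (of 23, median 1.95) and the other was Cdc6. All 6 lower genes were replication genes (of 16, median -0.65): Mcm2, Mcm3, Mcm4, Mcm6, Cdt1 and Ccne1. That count is not far from the 29.6% over all genes. With the mean of all probe sets 2 of the 6 were left, Mcm2 and Cdt1, and Mcm4 and Mcm6 also lost the call with the probe set of largest variance. No mitosis gene was lower, also not at an unadjusted p under 0.05 with limma.

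Ube2c read 8.54 and 7.48 in granulocytes, against 4.42 and 4.65 in naive CD8 and 5.80 and 4.37 in naive CD4 cells (3.20 ± 0.37, adjusted p = 6.48e-06, limma). Cdk1 read 8.63 and 7.34, against 6.27 and 3.23 in naive CD8 and 4.15 and 3.22 in naive CD4 cells (3.77 ± 0.72). Both granulocyte arrays were above all naive ones for both genes. The motors Kif11, Kif20a and Kif23 were higher by 2.38, 2.38 and 2.31. Mcm2 went the other way, with 7.32 and 5.53 in granulocytes, against 8.18 to 8.73 in the 4 naive arrays (-1.98 ± 0.39). Cdt1 read 9.60 and 9.02 in granulocytes, against 10.96 to 11.73 in the 4 naive arrays (adjusted p = 0.00104, limma).

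Granulocyte array 1 was above array 2 for 22 of the 23 mitosis genes, with a median gap of 1.16. Without array 1, the number of higher genes was 5, all of them mitosis genes. It was 10 without naive CD4 array 2 or without naive CD8 array 2, and 8 when both were left out. Granulocyte arrays lay above all naive ones for 16 genes and below for 6, beside 27.0% and 40% of all genes. Erythroid markers were above 5 for 6 of 8 in granulocyte array 1 (mean 8.18) and 4 of 8 in array 2 (mean 6.46). In each naive T cell array 1 of 8 was (means 3.61 to 3.79). Slc4a1 read 13.29 and 11.89 in granulocytes, Alas2 11.49 and 10.02, and Ermap 11.16 and 8.97. Klf1 read 5.32 and 1.91 and Gata1 5.26 and 2.72 there, and Epor and alpha globin were under 5 in both arrays. The probe set for the 5′ end of Gapdh read 8.26 and 8.23 in granulocytes, against 3.89 to 4.45 in naive T cells, and that for the 5′ end of actin read 9.15 and 7.59 in granulocytes, against 3.57 to 3.89 in naive T cells. The part of these values and of the granule-precursor markers in the result was not tested.

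**Figure D5:**
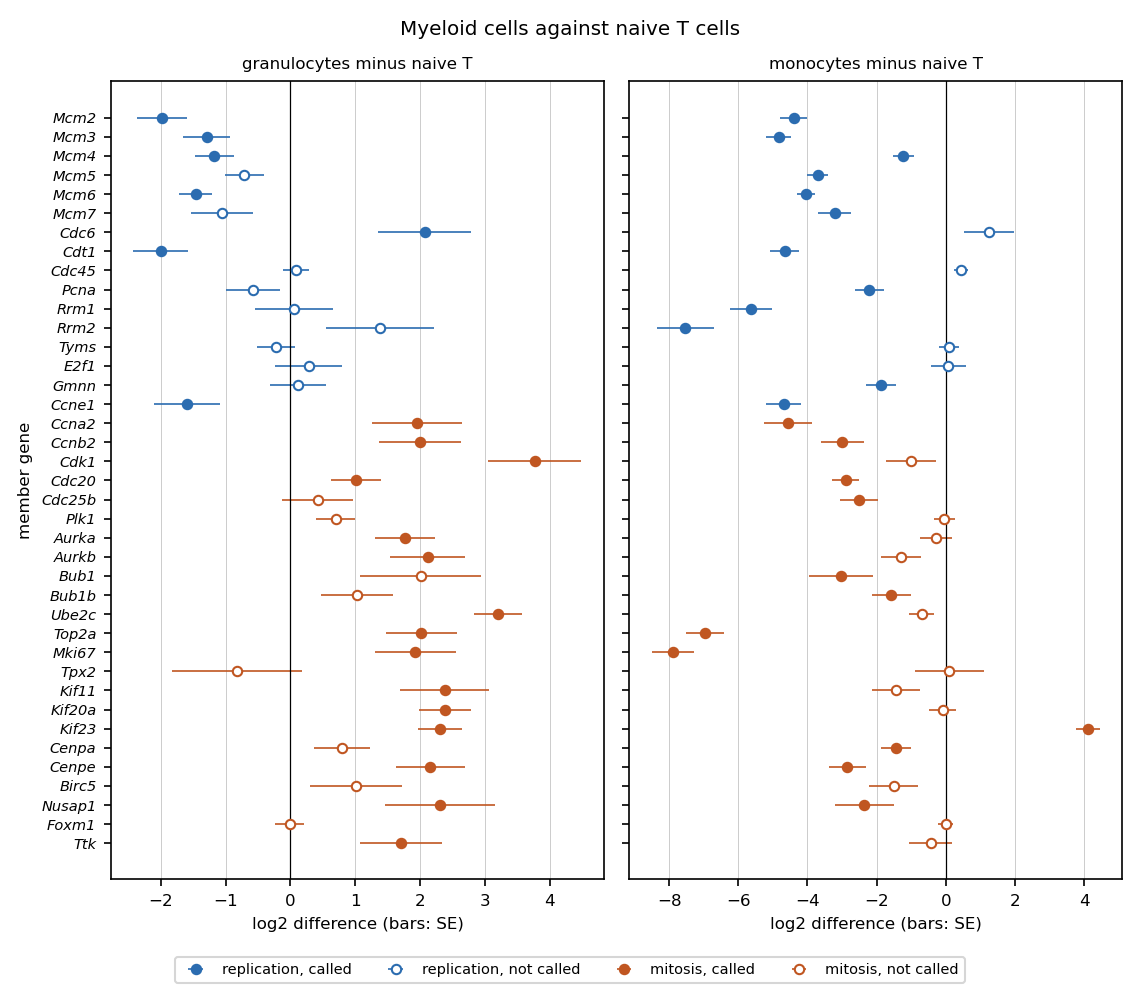
Log2 difference with its standard error for each gene against naive T cells, in granulocytes (left panel) and monocytes (right panel); filled points passed the test, blue for replication and orange for mitosis. In granulocytes most orange points lie right of 0 and most filled blue points left, and in monocytes nearly all filled points lie left of 0 except Kif23.

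Monocytes had the lowest levels of the 10 types for 12 of 16 replication genes and 11 of 23 mitosis genes. Against naive T cells, 23 genes were lower and 1 was higher, beside 35.7% and 16.8% of all genes and a median of -0.39. Both monocyte arrays lay below all naive ones for 26 genes and above for 2, beside 41.9% and 22.2% of all genes. Without naive CD4 array 1, 2 genes were higher. The lower ones were 12 of 16 replication genes (median -3.46) and 11 of 23 mitosis genes (median -1.44). Mki67 read 4.71 and 3.34 in monocytes, against 12.56 and 11.23 in naive CD8 and 12.67 and 11.20 in naive CD4 cells (-7.89 ± 0.62, adjusted p = 1.50e-07, limma). Rrm2 read 2.54 and 3.62 in monocytes, against 12.05 and 9.71 in naive CD8 and 10.90 and 9.79 in naive CD4 cells (-7.53 ± 0.83). Mcm3 read 4.66 and 6.02, against 10.55 and 10.35 in naive CD8 and 10.07 and 9.72 in naive CD4 cells (-4.83 ± 0.36). All naive arrays were above all monocyte arrays for these 3 genes, and 18 of 23 mitosis genes had no monocyte array above 5. With Mki67 and Rrm2 under 5 in monocytes, their differences give no measured ratio. The exception was Kif23, a kinesin of the central spindle, at 9.84 and 9.25 in monocytes, against 6.13 and 5.82 in naive CD8 and 4.90 and 4.88 in naive CD4 cells (4.11 ± 0.34). Its other probe set read 5.74 and 4.07 in monocytes and did not pass (0.88 ± 0.39). Neutrophil markers were above 5 for 6 and 5 of 6 in the monocyte arrays (means 10.74 and 11.35), against 0 to 2 of 6 in naive T cells (means 2.58 to 5.42), with Ngp at 11.77 and 11.30 in monocytes. Their part in the result was not tested.

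Set directly against monocytes, a comparison added after the data were seen, granulocytes had 30 genes higher and 1 lower (Kif23, -1.80 ± 0.40), beside 17.3% and 6.98% of all genes. Mki67, Top2a and Rrm2 were among the higher ones and were under 5 in both monocyte arrays, so their differences carry no measured ratio. Neutrophil markers averaged 15.38 and 15.64 in granulocytes, against 10.74 and 11.35 in monocytes. Of 5 measured monocyte markers, 3 were above 5 in each array of both types. Their means were 6.94 and 6.54 in granulocytes, against 6.11 and 6.63 in monocytes. Csf1r read 12.59 and 12.89 in granulocytes, against 13.95 and 13.71 in monocytes. The higher genes were 19 of 23 mitosis and 11 of 16 replication genes. Granulocyte arrays lay above both monocyte arrays for 31 genes and below for 4, beside 34.8% and 27.5% of all genes. A fit on these 4 arrays alone called 10 genes higher and 0 lower, and the Kif23 call was lost without granulocyte array 2.

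LT-HSC differed from naive T cells in single genes rather than in either block. Of 39 genes, 5 were higher and 3 lower, beside 17.1% and 24.7% of all genes, and the medians were 0.06 for replication and -0.09 for mitosis. Cdk1 read 7.77 and 8.01 in LT-HSC, against 6.27 and 3.23 in naive CD8 and 4.15 and 3.22 in naive CD4 cells (3.67 ± 0.72, adjusted p = 8.70e-04, limma). Bub1b (2.65), Cenpa (2.55), Mcm7 (1.45) and Kif23 (1.39) were higher too. Cdc25b read 5.33 and 4.66 in LT-HSC, against 9.57 and 8.59 in naive CD8 and 8.60 and 9.08 in naive CD4 cells (-3.96 ± 0.55). Ccnb2 (-2.30) and Mcm2 (-1.02) were lower. The Mcm2 call was lost in 14 of 31 alternatives and the Mcm7 call in 5. The arrays lay above all naive ones for 10 genes and below for 5, beside 24.4% and 39.5%. The number of higher genes was 9 without naive CD8 array 1, and that of lower genes 1 without LT-HSC array 1 and 5 without naive CD8 array 2.

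B cells and NK cells gave few differences from naive T cells. In B cells, Ccnb2 was lower (-2.19 ± 0.63, adjusted p = 0.0274, limma) and no gene was higher, beside 7.77% and 8.27% of all genes. At an unadjusted p under 0.05, 6 genes were lower and none higher in B cells. B cell arrays lay above all naive ones for 2 genes and below for 13, beside 19.9% and 24.2% of all genes. The Ccnb2 call was lost without either B cell array or without naive CD4 array 1, and 4 genes were lower without naive CD8 array 2. In NK cells no gene passed with limma, beside 8.35% higher and 8.95% lower of all genes, and at an unadjusted p under 0.05, 1 gene was higher and 2 lower. NK arrays lay above all naive ones for 0 genes and below for 4, beside 20.5% and 24.6%. Without naive CD8 array 2, 1 gene was lower. Mcm6, a helicase subunit, had a difference of 0.70 ± 0.25 in NK cells. The contrasts against naive T cells share the 4 naive arrays, so their values stand side by side only.

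Other genes of both pathways were followed in lists that do not include the members. Of 43 other replication genes tested, 40 were higher in nucleated erythrocytes than in the other types, beside 18.5% of all genes. In activated against naive T cells, 26 were higher and none lower (median 1.51), beside 17.1% and 19.5% of all genes. At an unadjusted p under 0.05, 1 of them was lower on activation. The 3 with the largest differences on activation were Mcm10 (4.09 ± 0.45), Gins1 (3.90 ± 0.45) and Gins2 (3.36 ± 0.34), which help to build the active helicase. In erythrocytes the largest differences from the other types were those of Ccne2, cyclin E2 (6.98 ± 0.86), Tk1, thymidine kinase (6.35 ± 0.49), and Clspn, the checkpoint protein claspin (6.21 ± 0.62). Of 49 other mitosis genes, 48 were higher in erythrocytes than in the other types. The largest differences were those of Cdc25c, a phosphatase that activates Cdk1 (8.03 ± 0.62), Aspm, a spindle pole protein (7.64 ± 0.55), and Cdca3 (7.45 ± 0.30). Of the 49, Cdc25c, Cenpi, Kif4, Ccnf and Espl1 passed the filter only through the erythrocyte arrays and had to differ. So did Tk1 of the replication list. Knl1, Kif15, Gtse1, Troap and Cit were near background in all arrays and not tested. Cdc25c, Aspm, Cdca3 and Tk1 averaged under 5 over the other types, so their differences carry no measured ratio and no order. In activated T cells 15 of the 49 mitosis genes were higher and 2 lower (median 0.50), beside the same shares over all genes. The largest differences were those of Cenpk (3.44 ± 0.56), Cks2 (2.57 ± 0.27) and Zwilch, a kinetochore protein (2.22 ± 0.37). The lower genes were Racgap1, a cytokinesis protein (-1.64 ± 0.64), and Smc4, a condensin subunit (-1.63 ± 0.25). Between erythrocytes and activated T cells, 48 of the 49 mitosis genes were higher and 22 of the 43 replication genes were higher with 3 lower, beside 21.4% and 37.4% of all genes. Tk1 (6.07), Ccne2 (5.87) and Clspn (5.08) had the largest differences of the replication list. Those of the mitosis list were Aspm (8.09), Anln, which binds the contractile ring (7.95), and Prc1, a central spindle protein (7.71). Tk1, Aspm and Anln averaged 3.23, 4.37 and 4.93 in activated T cells, so their differences carry no measured ratio and no order. The lower replication genes were Pold2, a DNA polymerase delta subunit (-2.18), and the origin recognition subunits Orc3 (-2.04) and Orc2 (-1.25).

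Of 17 E2F, RB and MuvB genes tested, 13 were higher in erythrocytes than in the other types and 2 lower, E2f5 (-3.25 ± 0.28) and Rbl2 (-1.74 ± 0.39), beside 18.5% and 36.7% of all genes. The higher ones were E2f7 (7.20), Tfdp2 (7.06), E2f2 (6.37), E2f8 (5.73), Mybl2 (5.60) and Rbl1 (3.20), and 7 more. Mybl2 was above 5 in the erythrocyte arrays only, so it passed the filter through them and had to differ. On activation 3 were higher and 3 lower, counts close to the 17.1% and 19.5% over all genes. Against activated T cells 11 were higher in erythrocytes, with Tfdp2 at 9.19 ± 0.77, and E2f5 was lower (-4.66 ± 0.32). E2f2 averaged 14.37 in erythrocytes, against 6.42 in activated T cells (7.95 ± 0.44), and was lower in activated than in naive T cells (-1.16 ± 0.36). E2f7 and E2f8, the atypical E2F repressors, were higher in erythrocytes than in activated T cells by 7.68 ± 0.54 and 5.99 ± 0.57 and did not pass on activation (0.42 and 0.38). E2f7 was under 5 in all T cell arrays and averaged 3.48 over the types other than erythrocytes. Its differences carry no measured ratio, and no change of it on activation could be measured. Mybl2, the activator subunit that joins MuvB, averaged 8.80 in erythrocytes, against 3.29 in activated T cells (5.51 ± 0.16), where it was near background. Rbl2 (p130), the pocket protein of the repressing DREAM complex, was lower on activation (-2.52 ± 0.37), and Rbl1 (p107) did not pass (-0.40 ± 0.39). In erythrocytes Rbl1 was higher than in activated T cells by 2.62 ± 0.48. Tfdp1, the dimer partner of E2F, was higher on activation by 2.59 ± 0.25, as were E2f6 (1.90 ± 0.54) and E2f3 (1.82 ± 0.35), and Tfdp2 was lower (-2.64 ± 0.63).

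Other probe sets of the same genes gave mostly the same calls. Of 33 further probe sets tested, from 25 genes, 30 matched the call of the brightest one in erythrocytes against the other types, 28 in activated against naive T cells and 27 in erythrocytes against activated T cells. Some of the 33, of Tyms, Bub1b, Tpx2, Cenpa, Cenpe, Foxm1 and Ttk, were above 5 in the erythrocyte arrays only. They passed the filter through that type and had to differ there. In the T cell arrays they were under 5, so a match on activation measured nothing. In none of the 12 contrasts did a further probe set pass in the opposite direction.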

How the data were processed

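Gene expression was measured on Affymetrix Mouse430_2 arrays, 2 for each of 10 cell types. The deposited values are log2 expression values that the authors made with GCRMA, per the submitters' processing notes; no version is stated, nor whether the 20 arrays were normalized jointly. Each array holds 45101 probe sets, with values between 0.37 and 16.85 and array medians of 3.08 to 3.27. No depth applies to arrays, and the number of arrays limits the precision.

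Gene names came from GEO's platform annotation: 34945 had 1 gene symbol, 932 had several, 9160 were not listed and 64 were controls. Symbols were updated by Entrez identifier for 34741. A gene was represented by its brightest probe set and tested if at least 2 arrays exceeded 5, which kept 9810 of 18193 genes. Each gene was modelled over the 20 arrays with a mean for every type (limma 3.58.1, R 4.3.3, lmFit and eBayes, 10 residual degrees of freedom). P-values were two-sided, with Benjamini-Hochberg adjustment across those 9810 genes. Further probe sets of the members were tested in a separate fit of all 18755 probe sets that passed the same filter, with adjustment across those. Genes were called at an adjusted p below 0.05 together with a log2 difference of 1 or more in size. The fit was tested on simulated data. Groups came from the sample titles, and for 1 array whose title reads CD48+ from its source name.

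The members, the other lists and the tests were chosen with earlier results of these data known, so lists are described by counts and medians with no test. All 40 genes were to be named, with the 3 largest differences on each side of the other lists in 3 contrasts, and E2f7, E2f8, E2f2, Rbl1 and Mybl2. Promoter windows came from RefSeq (GRCm38.p6). Alternatives covered normalization, filter, choice of probe set, samples in the fit, array weights, a replicate block and each array left out.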

Additional observations from a re-analysis of the deposited data

Results flagged for a closer look

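The second probe set of E2f1 differed more between activated and naive cells in CD8 than in CD4 T cells, by 2.24 ± 0.44 on the log2 scale (adjusted p = 0.0418, limma). It read 8.16 and 7.84 in activated CD8 cells, against 4.64 and 4.03 in naive CD8 cells, and 5.23 and 5.48 in activated CD4 cells, against 3.58 and 4.27 in naive CD4 cells. All naive arrays were thus under 5, and activated CD4 arrays little above it. The differences on activation carry no measured ratio, and the gap between the lineages has no measured size. The brightest E2f1 probe set gave 1.25 ± 0.83 for the same difference and did not pass. The second probe set is singled out because the test of the difference between the lineages itself passed, and the cause was not tested.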

How the results depend on the processing

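Between 28 and 31 alternative settings were run for each comparison. Across single genes, 13712 results kept their direction and side of the threshold, 367 lost a call, 142 gained one and 2 reversed; a sign change where neither setting passed was not counted as reversed. Both reversals were E2f1 in erythrocytes minus activated T cells (main value -0.22), at 2.90 with the probe set of largest variance and 1.11 without nucleated erythrocyte array 2; without array 1 it was -1.55. The cause was not tested, here and below, except that fits on only the groups compared use fewer samples. Members called with only those groups were 3 lower for activated minus naive T (main 5), 9 higher and 1 lower for CD8 (main 14 and 4), 0 lower for B cells (main 1), 7 higher for granulocytes minus naive T (main 16), and 10 higher and 0 lower for granulocytes minus monocytes (main 30 and 1). The mean of all probe sets gave 2 lower for activated CD8, 2 lower for granulocytes minus naive T (main 6) and 0 lower for granulocytes minus monocytes. Without the naive arrays numbered 1, 3 were lower on activation, 2 lower in CD8 and 2 higher in monocytes (main 1). Without those numbered 2, 8 were higher in CD8, 5 lower in LT-HSC (main 3), 6 lower in B cells, 2 lower in NK cells (main 0) and 8 higher in granulocytes. The probe set of largest variance gave 1 higher for CD8 minus CD4 activation (main 0). For B cells, array weights gave 2 lower and no filter gave 0.

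Leaving out each replicate array in turn gave 37 to 39 higher for erythrocytes against the rest, 12 to 17 higher and 4 to 5 lower on activation, 5 to 10 higher and 2 to 5 lower in CD4, and 7 to 16 higher and 1 to 4 lower in CD8. It gave 28 to 31 higher and 0 to 1 lower for erythrocytes minus activated T, 4 to 9 higher and 1 to 5 lower in LT-HSC, 0 to 4 lower in B cells, 0 to 1 lower in NK cells, and 1 to 2 higher and 21 to 27 lower in monocytes. For granulocytes it gave 5 to 17 higher and 4 to 7 lower against naive T cells, and 21 to 31 higher and 0 to 1 lower against monocytes. A lone array was then assumed to vary like the other groups. Single arrays decided several counts: activated CD4 lower 2 without naive CD4 array 1, granulocytes higher 10 without naive CD4 array 2 or naive CD8 array 2. With the replicate number as a block, 16 were higher on activation (main 14) and 7 in LT-HSC (main 5), with no other count changed. Whether the numbers pair the samples is not known. A correlation of deviations over 0.1 was seen in 9 of 45 pairs of types (range -0.26 to 0.21), which cannot exclude pairing. The naive CD4 and CD8 arrays numbered 1 shared the Y-linked signal, and those numbered 2 lacked it. Quantile normalization moved the median of all genes to -0.40 for erythrocytes against the rest, -0.24 for erythrocytes minus activated T and -0.20 for monocytes. Probe sets near background give no reliable difference, and 2 arrays per type limit all of the above.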
